A study of Mus musculus with 24 samples.

Results

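Endothelial cells line blood vessels and the chambers of the heart, and 34 genes that mark these cells or carry the signals that build vessels are described here, of 19920 genes tested. They were picked by gene symbol as a functional group, with earlier results of these data known, and all 34 were measured on Affymetrix mouse gene arrays. RNA came from 6 groups of mouse samples with 2 arrays each. The cultured groups were embryonic stem (ES) cells kept undifferentiated, sampled on day 0, their aggregates called embryonic bodies (EB), sampled on day 7, and cardiac bodies (CB), in which differentiation into heart muscle cells had gone further, sampled on day 14. ES cells had been differentiated in a DMEM-based medium with 10% serum. From animals, whole hearts were taken from E17.5 embryos, from pups on postnatal day 1 (P1) and from adults. The labels give no genotype, strain, sex or treatment for any group, no adult age, and no ES cell line. A whole heart mixes endothelial cells with cardiomyocytes, fibroblasts, mural cells and blood, and the cultures are mixtures too. In such bulk samples, fewer endothelial cells and less RNA per cell cannot be told apart.

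Vessels form under a few receptor systems. Vascular endothelial growth factors (VEGFs) bind receptor kinases on endothelial cells, Kdr being the main signalling receptor, and neuropilins assist them. Angiopoietins act through the Tek receptor, which steadies mature vessels. Ephb4 and its ligand Efnb2 mark veins and arteries, apelin signals through Aplnr, and ETS and SoxF transcription factors switch on the endothelial programme, whose products include the junction protein VE-cadherin (Cdh5).

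Values are log2 signals, so a change of 1 is a 2-fold difference, and they were compared between arrays for the same gene and not between genes. The median signal over all genes and arrays was 6.11. All 9 endothelial identity markers (Cdh5, Pecam1, Tek, Tie1, Kdr, Emcn, Esam, Cldn5 and Robo4) lay above it on both arrays of the E17.5, P1 and adult hearts. Of these 9 markers, 6 lay above it on both arrays in EB, 2 in CB (Pecam1 and Robo4) and 2 in ES cells (again Pecam1 and Robo4). The low markers in EB were Emcn and Esam on replicate 1 and Robo4 on both arrays. Over all 34 genes, 31 lay above the median on both E17.5 arrays, 30 on both P1 arrays and 31 on both adult arrays.

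Replicate arrays of 3 groups stood further apart than those of the others. The share of all genes that differed by more than 1 between a group's arrays was 0.241% in ES cells, 2.75% in EB and 0.723% in CB, and 0.246% at E17.5, 5.4% at P1 and 1.28% in adult hearts. Among the 34 genes, 10 differed by more than 1 between the EB arrays, 1 between the CB arrays and 2 each between the P1 and the adult arrays. All arrays entered 1 model (limma, 6 group means), and the calls below rest on p-values adjusted over all genes by the Benjamini-Hochberg method, with 0.05 as the threshold. The labels do not say whether the arrays of a group came from separate cultures or animals, so the p-values measure only the spread between these samples, which may be technical. Many of the comparisons that follow share a group, such as EB, and are then not independent of each other.

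**Figure D1:**
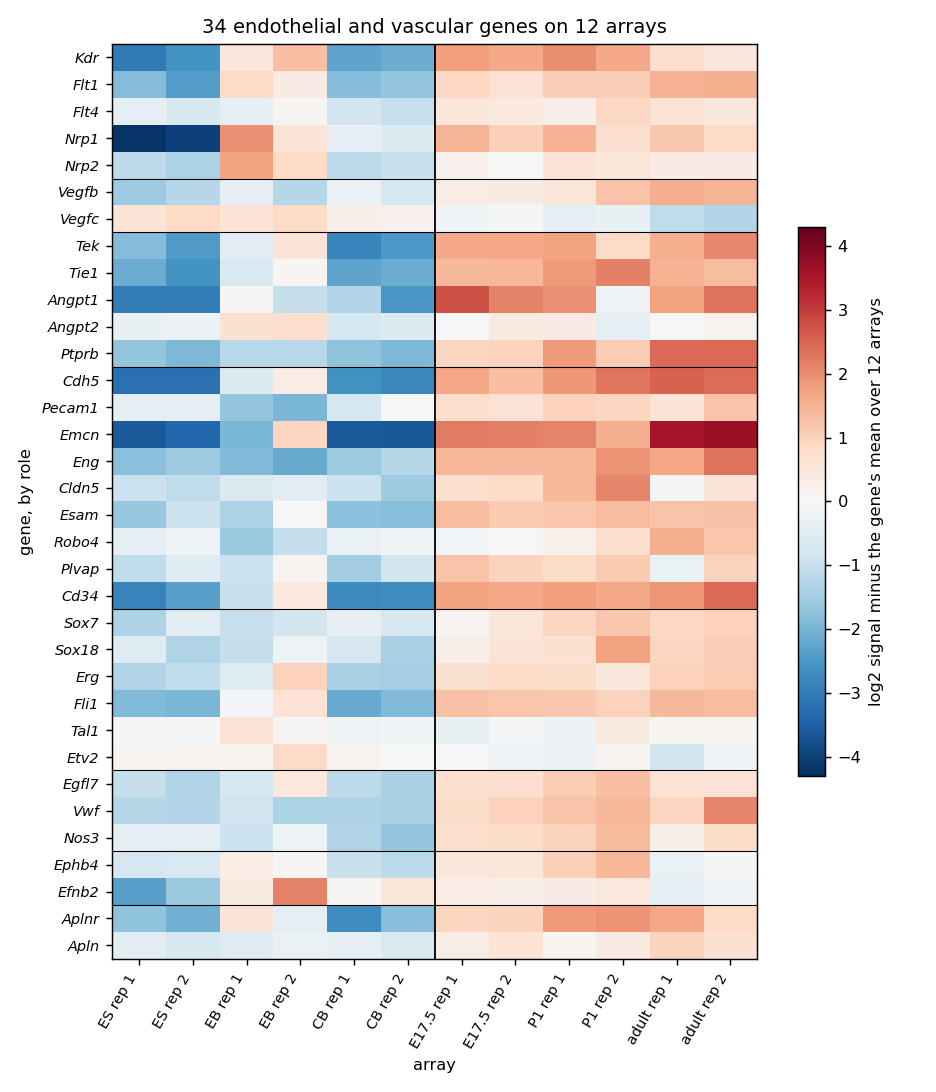
Signals of the 34 genes (rows, grouped by role) on the 12 arrays (columns, cultures left of the line, hearts right), as log2 signal minus the gene's mean over the 12 arrays. Most rows are blue in ES cells and CB and red in hearts, and the EB columns lie between, with the 2 EB arrays unlike each other in rows such as Emcn.

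In embryonic bodies the VEGF receptors Kdr and Flt1, both neuropilins, the receptors Tek and Tie1 and VE-cadherin rose above their level in ES cells. Of the 34 genes, 17 rose and 2 fell, where 12% of all genes rose and 8.61% fell. Their median change was 0.75, against -0.03 over all genes. Kdr, the main VEGF receptor, had signals of 7.91 and 8.71 in EB, against 4.39 and 4.84 in ES cells. It was 13.0-fold higher, a change of 3.70 ± 0.26 (SE of the fit, adjusted p = 1.46e-06), and the groups did not overlap. Nrp1, a co-receptor for VEGFs and semaphorins, had 10.55 and 9.14 in EB and 4.36 and 4.56 in ES cells. This was the largest rise among the 34 genes, at 5.38 ± 0.38 (adjusted p = 1.55e-06), with both EB arrays far above both ES arrays.

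The other receptors of this family followed with smaller values. Flt1, which binds VEGF-A tightly and signals weakly, had 8.15 and 7.67 in EB and 5.47 and 4.91 in ES cells, a rise of 2.72 ± 0.22 (adjusted p = 4.1e-06). Nrp2, the sister of Nrp1, had 9.001 and 8.145 in EB and 6.14 and 5.92 in ES cells and rose by 2.54 ± 0.24. In both genes the lower EB array was well above the higher ES array. Flt4, the VEGF-C receptor of lymphatic vessels, had 5.84 and 6.36 in EB and 5.84 and 5.54 in ES cells, and its difference of 0.41 ± 0.24 did not pass the test (adjusted p = 0.282). Neither ligand among the 34 genes passed. Vegfb, with 8.71 and 7.87 in EB and 7.54 and 7.90 in ES cells, overlapped between the groups, and so did Vegfc, with 8.04 and 8.27 in EB and 8.05 and 8.33 in ES cells.

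Tek, the angiopoietin receptor, had 7.51 and 8.54 in EB and 6.09 and 5.54 in ES cells, a rise of 2.20 ± 0.36 (adjusted p = 0.000813). Its partner receptor Tie1 had 6.96 and 7.70 in EB and 5.48 and 5.04 in ES cells and rose by 2.07 ± 0.24. The groups were apart in both genes. Angpt1, the ligand that activates Tek, rose by 2.47 ± 0.59, with 6.33 and 5.27 in EB and 3.33 and 3.33 in ES cells. Angpt2, a ligand that can oppose Angpt1, rose by 0.96 ± 0.23, with 6.13 and 6.22 in EB and 5.19 and 5.24 in ES cells. Ptprb, a phosphatase that restrains Tek and VE-cadherin, differed by 0.61 ± 0.22 and missed the threshold (adjusted p = 0.0735).

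Junction and surface proteins split in direction, with 3 of 9 rising and 2 falling. Cdh5 had 6.87 and 7.82 in EB, against 4.27 and 4.29 in ES cells, a rise of 3.06 ± 0.28 (adjusted p = 9.1e-06). Cd34, a sialomucin of endothelium and blood progenitors, had 7.28 and 8.70 in EB and 5.37 and 5.89 in ES cells and rose by 2.36 ± 0.36. Emcn, a sialomucin of veins and capillaries, had 5.14 and 8.02 in EB and 3.47 and 3.71 in ES cells. Its rise of 2.99 ± 0.62 (adjusted p = 0.00398) pooled EB arrays that both lay above both ES arrays but stood far apart. Pecam1, an adhesion protein of endothelial cells that mouse ES cells are also known to carry, went the other way, with 6.63 and 6.31 in EB and 7.91 and 7.90 in ES cells. It fell by 1.43 on the log2 scale (adjusted p = 0.00179). Robo4, an endothelial receptor of the roundabout family, fell as well, with 5.05 and 5.63 in EB and 6.23 and 6.46 in ES cells (change -1.01 ± 0.24). Eng, a TGF-beta and BMP co-receptor, Cldn5, a tight junction protein, Esam, an adhesion protein, and Plvap, a protein of endothelial fenestrae, did not pass, with changes between -0.34 and 0.59.

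Among the 6 transcription factors only the ETS factors Fli1 and Erg passed. Fli1 had 6.71 and 7.38 in EB and 4.85 and 4.79 in ES cells, a rise of 2.23 ± 0.21 (adjusted p = 1.25e-05). Erg had 6.16 and 7.70 in EB and 5.44 and 5.63 in ES cells, a rise of 1.40 ± 0.35. Etv2, an ETS factor that acts briefly when endothelial and blood precursors first form, had 5.52 and 6.26 in EB and 5.46 and 5.52 in ES cells and did not pass (adjusted p = 0.382). Tal1, a blood and endothelial factor, and the SoxF factors Sox7 and Sox18 had changes of 0.41, 0.03 and 0.29 and did not pass either. Of the ephrin pair, Efnb2 had 7.996 and 9.76 in EB and 5.28 and 6.04 in ES cells, a rise of 3.22 ± 0.43 (adjusted p = 0.00018). Ephb4 had 8.45 and 8.17 in EB and 7.39 and 7.46 in ES cells, a rise of 0.88 ± 0.19 (adjusted p = 0.00481). Aplnr rose by 1.94 ± 0.35, with 7.49 and 6.52 in EB and 5.23 and 4.90 in ES cells, while its ligand Apln, with 5.86 and 6.09 in EB and 5.93 and 5.69 in ES cells, overlapped between them. Egfl7, a secreted endothelial protein, rose by 1.01 ± 0.29. Vwf, the clotting factor carrier, and Nos3, endothelial nitric oxide synthase, had changes of 0.15 and -0.15 and did not pass.

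With each of the 12 arrays left out in turn, 14 of these 19 calls held each time. A group then left with 1 array is assumed to vary like the other groups, which alone supply the spread behind its p-value. Angpt1 lost its call without ES replicate 1, ES replicate 2 or EB replicate 1, with adjusted p up to 0.0866. Angpt2, Erg and Egfl7 lost theirs without either ES array or without EB replicate 2, and Robo4 without ES replicate 2 or EB replicate 1. The call of Egfl7 was lost too after quantile normalization or with the median of its exon-level values. Markers of other cell types moved between the same arrays, and their part in the result was not tested. All 7 pluripotency markers fell, with a mean level of 7.990 and 8.004 in EB and 11.30 and 11.26 in ES cells. Of 8 fibroblast markers 6 rose, with a mean level of 7.862 and 6.0002 in EB and 5.08 and 5.03 in ES cells, and of 8 erythroid markers 4 rose, with 8.64 and 5.27 in EB and 4.73 and 4.71 in ES cells. Of 10 mural cell markers 5 rose, and of 7 cardiomyocyte markers 2 rose and 1 fell.

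Promoter letters of 5 genes are shown as examples that hold a motif with the GGAA core of ETS factors such as Fli1 and Erg. Of them Kdr, Tek, Tie1 and Emcn rose in EB and Robo4 fell. Flt1, Nrp1, Efnb2 and Ephb4, which also rose in EB, held no such motif in their promoters and are not shown. Each stretch is the 250 bases before a start recorded for the gene (build GRCm38), 5′ to 3′ on the gene's own strand. This start can differ from the outer end of the gene's range in RefSeq. Capitals mark each CCGGAA or CAGGAA, searched on both strands, so that TTCCGG and TTCCTG are the same motifs read on the other strand. The stretches lie at chr5:75978456-75978705 on the minus strand for Kdr, chr4:94739039-94739288 on the plus strand for Tek and chr4:118489850-118490099 on the minus strand for Tie1. Those of Emcn and Robo4 lie at chr3:137340828-137341077 and chr9:37401722-37401971, both on the plus strand. Only the stretch of Tie1 lies wholly outside its gene's range, which ends at 118489849. That of Kdr lies inside its gene's range, which ends at 75979072. The others run past the first base of the range, at 94739086 for Tek, 137341062 for Emcn and 37401902 for Robo4. The marked motifs of Kdr, Tek and Robo4 thus lie inside the range.
Kdr: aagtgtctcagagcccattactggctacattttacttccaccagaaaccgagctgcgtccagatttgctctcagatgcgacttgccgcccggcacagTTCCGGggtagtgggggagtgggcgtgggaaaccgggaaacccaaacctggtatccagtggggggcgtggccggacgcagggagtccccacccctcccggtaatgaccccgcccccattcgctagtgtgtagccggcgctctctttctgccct
Tek: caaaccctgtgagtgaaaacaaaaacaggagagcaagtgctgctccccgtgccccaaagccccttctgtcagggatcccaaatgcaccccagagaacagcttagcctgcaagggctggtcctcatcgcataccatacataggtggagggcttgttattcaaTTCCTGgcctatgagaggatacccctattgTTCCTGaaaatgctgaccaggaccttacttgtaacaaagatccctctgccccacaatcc
Tie1: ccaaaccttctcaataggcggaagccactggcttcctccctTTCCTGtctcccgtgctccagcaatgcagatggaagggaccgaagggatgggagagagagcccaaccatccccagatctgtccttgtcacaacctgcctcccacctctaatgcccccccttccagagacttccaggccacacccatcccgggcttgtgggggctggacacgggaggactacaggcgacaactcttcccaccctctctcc
Emcn: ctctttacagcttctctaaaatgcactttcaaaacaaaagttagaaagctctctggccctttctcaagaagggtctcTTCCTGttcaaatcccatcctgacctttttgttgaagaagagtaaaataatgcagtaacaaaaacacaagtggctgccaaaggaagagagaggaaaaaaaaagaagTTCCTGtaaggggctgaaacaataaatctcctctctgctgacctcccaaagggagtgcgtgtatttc
Robo4: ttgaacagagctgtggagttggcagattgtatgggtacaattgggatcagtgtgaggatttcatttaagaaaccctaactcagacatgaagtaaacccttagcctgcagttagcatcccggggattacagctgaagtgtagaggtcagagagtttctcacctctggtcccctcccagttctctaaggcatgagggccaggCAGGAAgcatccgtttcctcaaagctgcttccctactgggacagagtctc

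Tek and Emcn each held 2 such motifs, and Kdr, Tie1 and Robo4 held 1 each. Robo4, which fell in EB, thus carries the same letters as genes that rose. Promoters were found for 21 of the 34 genes, and 11 of these 21 held either motif in at least 1 promoter. By promoter the count was 12 of 26, against 35.06% of all 32851 promoters of the same length. CCGGAA alone was in 12.03% of all promoters and CAGGAA in 25.71%. A match describes the letters and is not evidence of a bound factor.

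**Figure D2:**
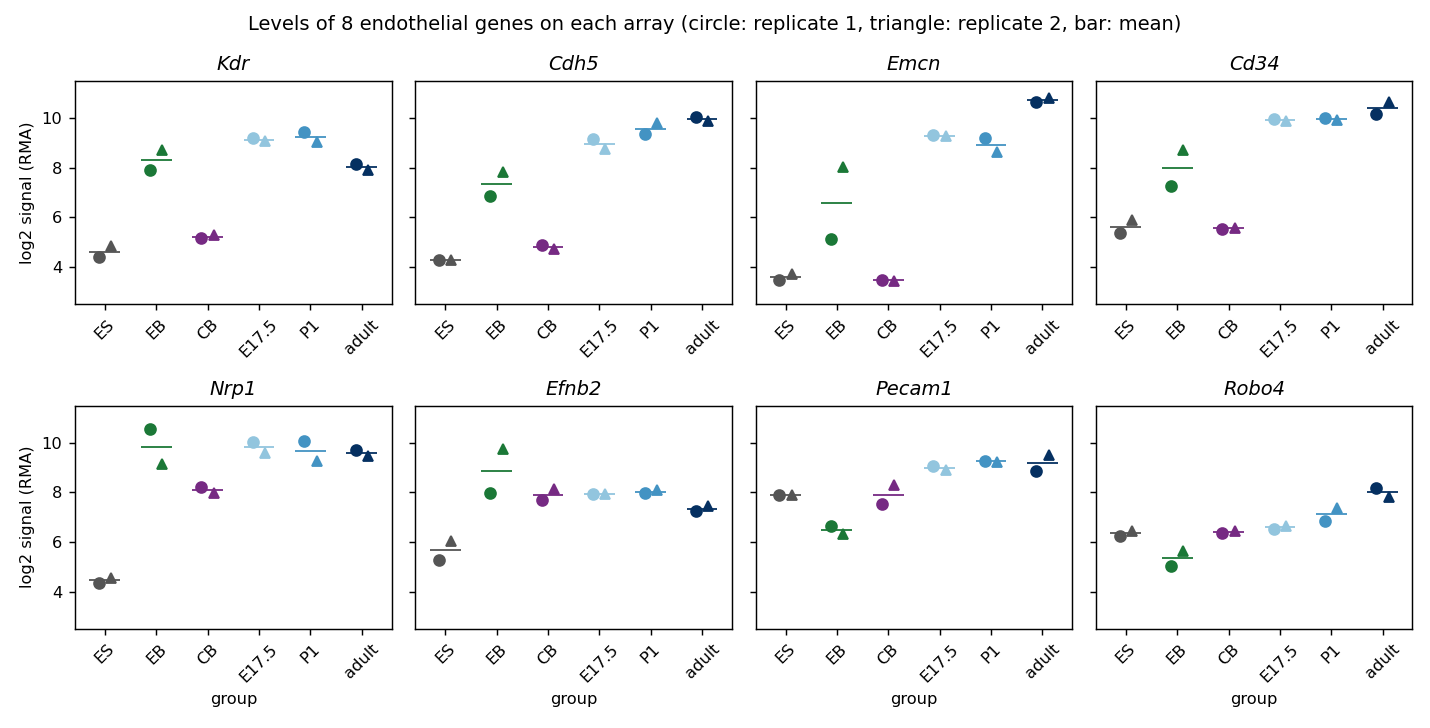
Log2 signals of 8 endothelial genes on each array (circle for replicate 1, triangle for replicate 2, bar for the group mean), with the groups along the horizontal axis. Kdr, Cdh5, Emcn and Cd34 peak in EB among the cultures, Pecam1 and Robo4 dip there, and Nrp1 and Efnb2 remain above their ES level in CB.

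The EB arrays differed from each other in many of these genes. Of the 34 genes, 23 were higher in EB replicate 2 and 11 in EB replicate 1. Their median of replicate 1 minus replicate 2 was -0.38, against -0.10 over all genes, so genes in general were slightly higher in replicate 2. By more than 1, 8 were higher in replicate 2 and 2 in replicate 1, where 1.15% and 1.6% of all genes were. The difference of replicate 1 minus replicate 2 was -2.88 in Emcn, -1.76 in Efnb2, -1.54 in Erg, -1.42 in Cd34 and -1.39 in Esam. In Egfl7, Plvap and Tek it was -1.16, -1.05 and -1.03. Nrp1 and Angpt1 were the genes higher in replicate 1, with differences of 1.40 and 1.06. A single pair of arrays allows no test of these differences.

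Of the 9 endothelial identity markers, 8 were higher in EB replicate 2, with a mean level of 6.51 in replicate 1 and 7.42 in replicate 2. Of 40 other endothelial genes, 34 were higher in replicate 2 and 11 of them by more than 1, and none was higher in replicate 1 by more than 1. Red cell genes ran the opposite way. All 8 erythroid markers were higher in replicate 1 by more than 1, with a median of 2.76, and 7 of 8 fibroblast markers were, with a median of 2.02. Of 4 lymphatic endothelial markers 3 were higher in replicate 1 and 1 in replicate 2, with a median of 0.87. All 4 endocardial markers were higher in replicate 2. Of 5 early mesoderm markers 2 were higher in replicate 1 by more than 1, and none in replicate 2. No pluripotency, cardiomyocyte or white cell marker differed by more than 1, and the part of these other markers in the endothelial differences was not tested. Each EB array was also set alone against ES cells, with the spread taken from the other groups. The rise of Emcn was 4.43 without EB replicate 1 and 1.55 without EB replicate 2, that of Erg 2.16 and 0.63, and that of Egfl7 1.59 and 0.44. The calls among the 34 genes differed with the EB array left out, and so did those over all genes. Esam, which did not pass with both arrays, differed by 1.29 without EB replicate 1 (adjusted p = 0.00632) and by -0.10 without EB replicate 2.

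**Figure D3:**
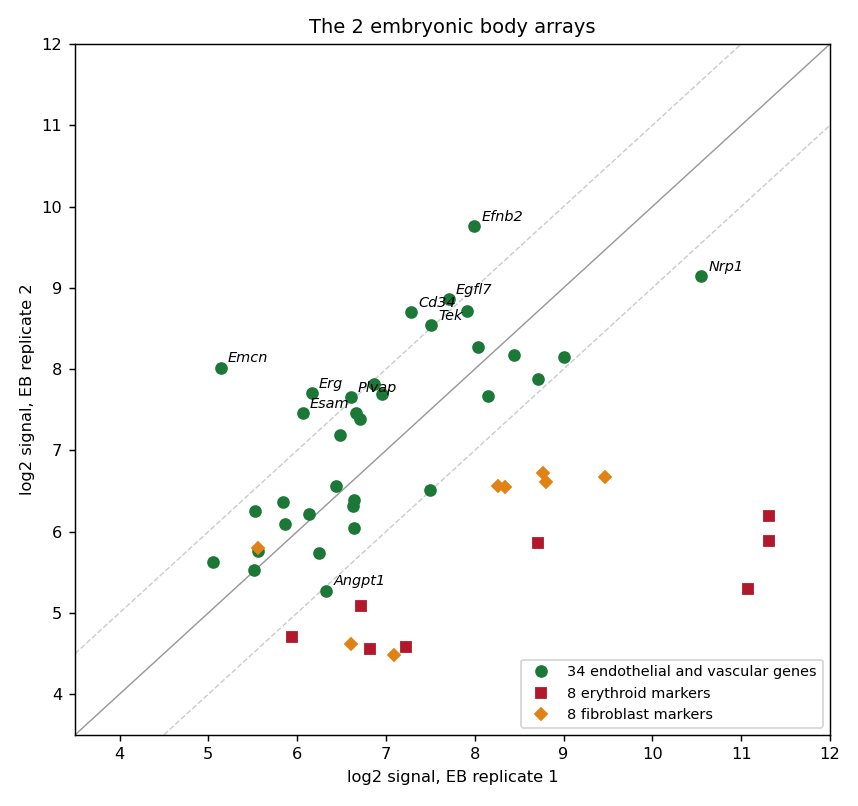
Log2 signals on EB replicate 1 (horizontal) and EB replicate 2 (vertical) for the 34 genes (circles), 8 erythroid markers (squares) and 8 fibroblast markers (diamonds). The solid line marks equal signals and the dashed lines a difference of 1. The 8 endothelial genes above the upper dashed line include Emcn and Efnb2, and all 8 erythroid markers lie below the lower dashed line.

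In cardiac bodies most of the genes that had risen in EB were lower again. Against EB, 16 of the 34 genes fell and 2 rose, where 6.43% and 5.45% of all genes did, and their median change was -1.04, against -0.01 over all genes. This comparison shares the EB arrays with the one above, and the 2 are not independent. Kdr had 5.15 and 5.30 in CB, against 7.91 and 8.71 in EB, a change of -3.09 ± 0.26 (adjusted p = 8.65e-06). Emcn had 3.47 and 3.44 in CB and 5.14 and 8.02 in EB, a change of -3.12 ± 0.62 (adjusted p = 0.00534). Cdh5 had 4.90 and 4.71 in CB and 6.87 and 7.82 in EB and changed by -2.54 ± 0.28. None of these groups overlapped, and in each gene both CB arrays lay within 1 of the higher ES array.

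Tek had 5.16 and 5.51 in CB and 7.51 and 8.54 in EB (change -2.69 ± 0.36), and Tie1 had 5.34 and 5.46 in CB and 6.96 and 7.70 in EB (change -1.93 ± 0.24). Cd34, Flt1, Nrp2, Fli1 and Aplnr fell, with changes from -2.43 to -2.30. Angpt2, Ephb4, Erg, Nrp1, Egfl7 and Nos3 fell too, with changes from -1.74 to -0.92. The genes that rose were Pecam1 and Robo4. Pecam1 had 7.53 and 8.30 in CB and 6.63 and 6.31 in EB, a rise of 1.44 ± 0.26 (adjusted p = 0.00323). Robo4 had 6.36 and 6.45 in CB and 5.05 and 5.63 in EB, a rise of 1.07 ± 0.24 (adjusted p = 0.0103). Of these 18 calls, 13 held with each array left out in turn. Nrp1 lost its call without EB replicate 1 or CB replicate 2, Erg without either CB array, Robo4 without EB replicate 1 or either CB array, and Egfl7 without EB replicate 2 or either CB array. Nos3 lost its call without any of 7 arrays, which were both ES, CB and E17.5 arrays and EB replicate 2. With exon-level medians Egfl7 and Nos3 lost their calls. The size also moved with the EB arrays. Without EB replicate 1 and without EB replicate 2 the change of Emcn was -4.56 and -1.68, that of Erg -2.41 and -0.88 and that of Egfl7 -1.70 and -0.55. The change of Nrp1 was -1.03 and -2.44, and that of Nos3 -1.27 and -0.56.

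Against ES cells, 2 of the 34 genes were higher in CB and 1 was lower, where 6.19% of all genes rose and 3.61% fell. The median change was -0.09, against -0.05 over all genes. Nrp1 had 8.24 and 7.98 in CB and 4.36 and 4.56 in ES cells, a rise of 3.64 ± 0.38 (adjusted p = 5.51e-05) that held with each array left out. Efnb2 had 7.68 and 8.15 in CB and 5.28 and 6.04 in ES cells, a rise of 2.25 ± 0.43 (adjusted p = 0.00477). Nos3 had 6.10 and 5.74 in CB and 6.98 and 7.00 in ES cells, a change of -1.07 ± 0.26 (adjusted p = 0.0182). The Efnb2 call was lost without ES replicate 1 (adjusted p = 0.0689), and that of Nos3 without any 1 of the ES or CB arrays (up to 0.141), which left 1 call without ES replicate 1. Angpt1, with 5.01 and 3.77 in CB and 3.33 and 3.33 in ES cells, was higher on both CB arrays but did not pass (adjusted p = 0.357).

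Other markers moved beside this. All 7 cardiomyocyte markers rose in CB, with a mean level of 5.14 and 5.28 in ES cells, 5.36 and 5.52 in EB and 11.24 and 10.89 in CB. All 7 pluripotency markers were higher in CB than in EB as well, at a mean of 10.39 and 10.51 in CB. Against ES cells, whose mean was 11.30 and 11.26, 5 of these 7 markers were lower in CB, with a median change of -0.80 over the 7. Of 10 mural cell markers 1 was higher and 3 were lower in CB than in EB, of 8 fibroblast markers 2 were lower, and of 8 erythroid markers 3 were lower. The part of these markers in the endothelial differences was not tested.

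**Figure D4:**
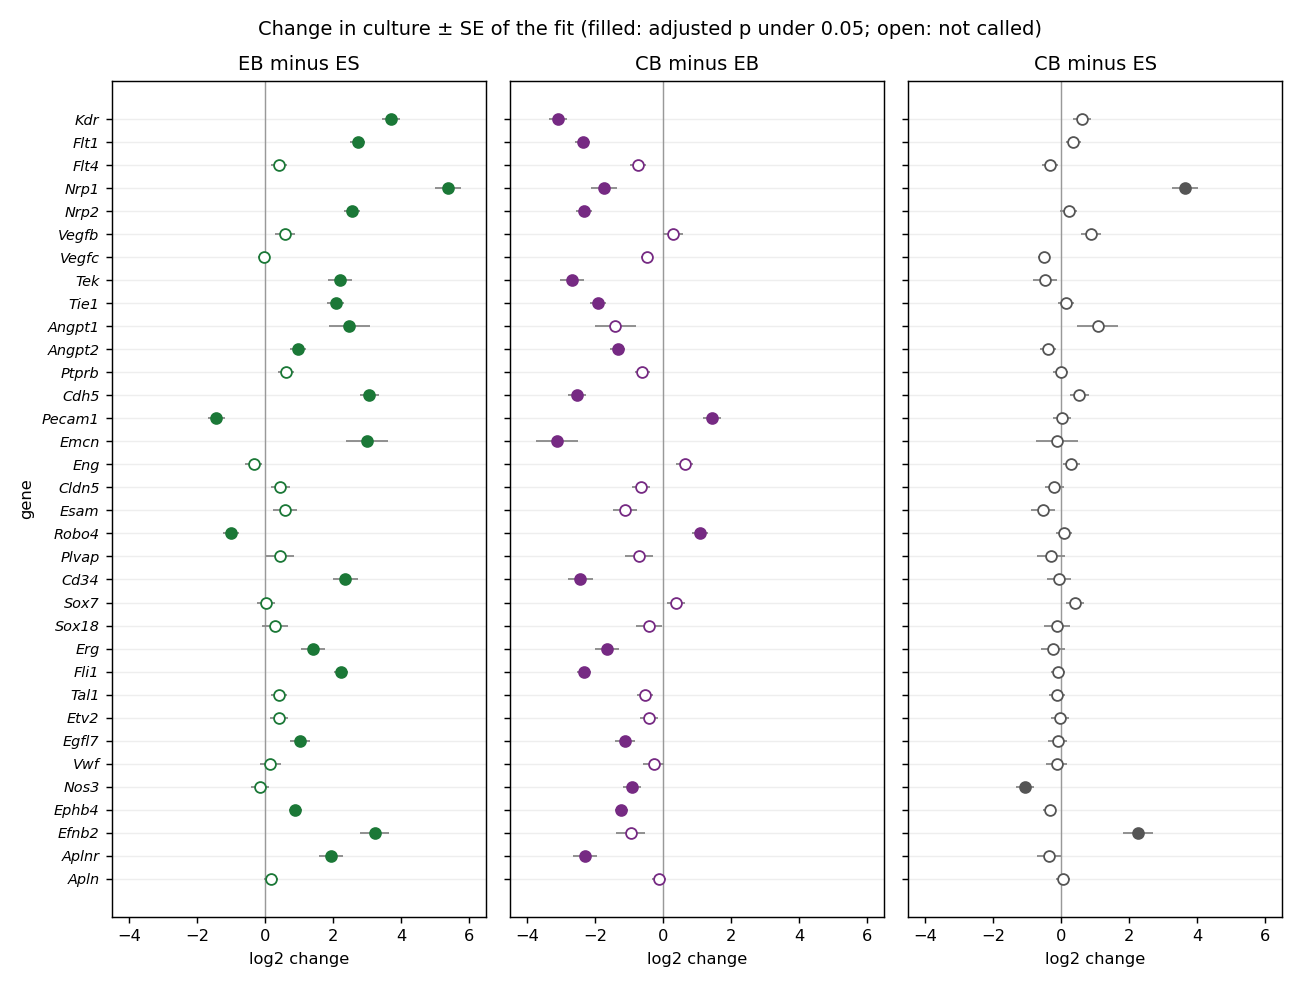
Log2 change of each of the 34 genes (rows) in EB minus ES, CB minus EB and CB minus ES, with bars for the SE of the fit. Filled points passed an adjusted p under 0.05. The first and second panels share the EB arrays, and in the CB minus ES panel Nrp1 and Efnb2 are filled to the right and Nos3 to the left.

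Cardiac bodies lacked most of the endothelial signal of E17.5 hearts, the tissue they were set beside. Of the 34 genes, 29 were lower in CB and none was higher, where 11.6% of all genes were lower and 12.1% higher. The median change was -2.10, against -0.02 over all genes. Emcn had 3.47 and 3.44 in CB, against 9.33 and 9.27 at E17.5, a change of -5.85 ± 0.61 (adjusted p = 3.04e-05). Cd34 had 5.54 and 5.57 in CB and 9.96 and 9.89 at E17.5 (change -4.37 ± 0.36). Angpt1 changed by -4.32 ± 0.59, Tek by -4.29 ± 0.36, Cdh5 by -4.16 ± 0.28, Kdr by -3.90 ± 0.26 and Tie1 by -3.61 ± 0.24. In each of these genes both CB arrays lay below both E17.5 arrays.

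The 5 genes that did not pass were Efnb2, Vegfc, Robo4, Tal1 and Etv2. Efnb2 had 7.68 and 8.15 in CB and 7.93 and 7.93 at E17.5, so that the groups overlapped. Robo4 had 6.36 and 6.45 in CB and 6.53 and 6.66 at E17.5, a difference of -0.19 ± 0.24. Of the 29 calls 23 held with each array left out. Those lost without some array were Vegfb, Sox7, Angpt2, Pecam1, Sox18 and Nrp1, with E17.5 replicate 1 and CB replicate 2 deciding Nrp1, E17.5 replicate 1 and CB replicate 1 deciding Pecam1, and E17.5 replicate 2 and CB replicate 2 deciding Sox18. Angpt2 lost its call without either CB array or E17.5 replicate 2, and Sox7 without any 1 of the CB, E17.5 or adult arrays. Vegfb lost it without any 1 of the ES, CB, E17.5 or adult arrays. Vegfb and Angpt2 were also lost with exon-level medians, Vegfb with the replicate block and Sox7 after quantile normalization. The change of Pecam1 was -1.45 without CB replicate 2 and -0.68 without CB replicate 1. All 8 fibroblast markers and 7 of 10 mural cell markers were lower in CB too, 5 of 7 cardiomyocyte markers were lower, and all 7 pluripotency markers were higher. Fibroblast markers had a mean level of 5.45 and 5.59 in CB and 10.04 and 10.21 at E17.5. Their part in the result was not tested.

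Across all arrays, 21 of the 34 genes lay higher on each of the 6 heart arrays than on any of the 6 culture arrays, where 9.49% of all genes did. They were Flt4, Vegfb, Tek, Tie1, Cdh5, Pecam1, Emcn, Eng, Cldn5, Esam, Robo4, Sox7, Sox18, Fli1, Egfl7, Vwf, Nos3, Cd34, Ptprb, Aplnr and Apln. Vegfc, the growth factor of lymphatic vessels, was the only one lower on every heart array, at 6.19 to 7.41 in hearts and 7.66 to 8.33 in cultures, where 12.9% of all genes were. Eng and Vwf, which did not pass in any comparison of cultures, had among the widest gaps. Eng ran from 9.95 to 10.88 in hearts and from 6.39 to 7.33 in cultures, and Vwf from 7.87 to 9.18 in hearts and from 5.68 to 6.24 in cultures. Kdr, Flt1, Nrp1, Nrp2, Angpt1, Angpt2, Erg, Ephb4, Efnb2, Plvap, Tal1 and Etv2 overlapped between hearts and cultures. EB replicate 2, with 8.71 for Kdr, lay above both adult hearts, at 8.13 and 7.93.

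Between heart ages fewer of these genes passed than between CB and E17.5 hearts. Between P1 and E17.5, 1 of the 34 genes rose and none fell, where 2.08% of all genes rose and 3.05% fell, and 9 of the 34 had an unadjusted p under 0.05. The gene was Ephb4, the receptor kinase of veins, with 9.15 and 9.57 at P1 and 8.60 and 8.65 at E17.5, a rise of 0.73 ± 0.19 (adjusted p = 0.043). This call held without either EB array or P1 replicate 1, and was lost without any of the other 9 arrays, with adjusted p up to 0.258. It was also lost with the replicate number as a block and with exon-level medians. Angpt1 showed how far the P1 arrays stood apart. It had 8.25 and 6.07 at P1 and 9.01 and 8.41 at E17.5, and the difference of -1.55 ± 0.59 did not pass (adjusted p = 0.173). Leaving out P1 replicate 1 leaves 1 P1 array and takes the difference between the P1 arrays out of the error. The difference from E17.5 was then -2.64 in Angpt1, 1.28 in Cldn5 and 1.31 in Sox18. All 4 proliferation markers fell at P1, with 2 of 10 mural cell markers rising and 2 of 8 erythroid markers falling, and their part was not tested.

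Adult hearts differed from P1 hearts in 8 of the 34 genes, of which 4 rose and 4 fell, where 15.6% of all genes rose and 14.7% fell. They differed from E17.5 hearts in 8 as well, of which 5 rose and 3 fell, where 18.1% and 18% did. The shares among the 34 genes, 11.8% and 11.8% against P1 and 14.7% and 8.82% against E17.5, were no higher than those of all genes. The adult arrays are shared by the 2 comparisons, which are therefore given side by side. Kdr had 9.19 and 9.06 at E17.5, 9.43 and 9.04 at P1 and 8.13 and 7.93 in adults. It fell in adults by 1.21 on the log2 scale against P1 (adjusted p = 0.00357) and by 1.09 against E17.5 (adjusted p = 0.00524), and both adult arrays lay below every younger heart. Ephb4 had 7.85 and 8.06 in adults, below each of the younger hearts, with changes of -1.40 ± 0.19 against P1 (adjusted p = 0.00014) and -0.67 ± 0.19 against E17.5. Vegfc had 7.28 and 7.41 at E17.5, 7.03 and 7.14 at P1 and 6.38 and 6.19 in adults, with changes of -0.80 ± 0.17 against P1 and -1.06 ± 0.17 against E17.5.

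Ptprb had 7.65 and 7.71 at E17.5, 8.57 and 7.81 at P1 and 9.15 and 9.17 in adults. It rose in adults by 0.97 ± 0.22 against P1 (adjusted p = 0.00529) and by 1.48 ± 0.22 against E17.5 (adjusted p = 0.00022). Robo4 had 6.53 and 6.66 at E17.5, 6.86 and 7.38 at P1 and 8.19 and 7.82 in adults. It rose by 0.89 ± 0.24 against P1 and by 1.41 ± 0.24 against E17.5 (adjusted p = 0.00049). The rise of Ptprb against P1 was 1.35 without P1 replicate 1 and 0.59 without P1 replicate 2. Both genes were higher on each adult array than on any younger heart. Cldn5 had 7.80 and 7.93 at E17.5, 8.49 and 9.15 at P1 and 6.99 and 7.62 in adults. Against P1 it fell by 1.51 on the log2 scale (adjusted p = 0.00116), and against E17.5 the difference of -0.56 did not pass, although both adult arrays were the lowest.

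Vegfb, a VEGF family ligand abundant in heart muscle, had 9.44 and 9.47 at E17.5, 9.63 and 10.33 at P1 and 10.68 and 10.56 in adults. It rose by 1.17 ± 0.29 against E17.5 (adjusted p = 0.00747), a call that was lost with the median of its exon-level values in place of the gene-level value. Cdh5, with 10.04 and 9.88 in adults and 9.17 and 8.77 at E17.5, rose by 0.99 ± 0.28 (adjusted p = 0.0142). Flt1, with 8.82 and 8.83 in adults and 8.20 and 7.94 at E17.5, rose by 0.76 ± 0.22 (adjusted p = 0.0171). Emcn had 9.33 and 9.27 at E17.5, 9.20 and 8.64 at P1 and 10.65 and 10.81 in adults, so that both adult arrays were above all 4 others. Its rise of 1.81 ± 0.61 against P1 passed narrowly (adjusted p = 0.0422) and its difference of 1.42 ± 0.61 against E17.5 did not (adjusted p = 0.0926), and the standard error of this gene pools the EB arrays, whose difference in it was -2.88. Without either EB array both passed, with an adjusted p of 5.06e-05 against P1 and 0.00018 against E17.5. Apln rose by 0.57 ± 0.20 against P1 (adjusted p = 0.0484).

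Of the 8 calls against P1, 5 held with each array left out. Robo4 lost its call without P1 replicate 1 or adult replicate 1. Emcn held without an EB array and was lost without any other, and Apln held only without P1 replicate 2. Apln was also lost with the replicate block, with an intensity trend and with exon-level medians. Of the 8 calls against E17.5, 5 held. Flt1 was lost without E17.5 replicate 2 or either adult array, Cdh5 without E17.5 replicate 2 or adult replicate 1, and Ephb4 without either E17.5 array or adult replicate 1 or with exon-level medians. Without E17.5 replicate 2, 5 calls were left. White cell, platelet and macrophage markers moved beside these, 9 of 10 rising in adults against both ages. Their mean level was 6.06 and 6.11 at E17.5, 6.14 and 6.26 at P1 and 7.64 and 8.18 in adults. Of 8 fibroblast markers 4 fell and 1 rose against P1, and 5 fell and 1 rose against E17.5, with a mean level of 10.04 and 10.21 at E17.5, 10.10 and 9.56 at P1 and 8.50 and 8.82 in adults. Of 4 proliferation markers 3 fell against P1 and 4 against E17.5. Of 10 mural cell markers 3 rose and 4 fell against P1, and 5 rose and 2 fell against E17.5. Their part in the endothelial differences was not tested.

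**Figure D5:**
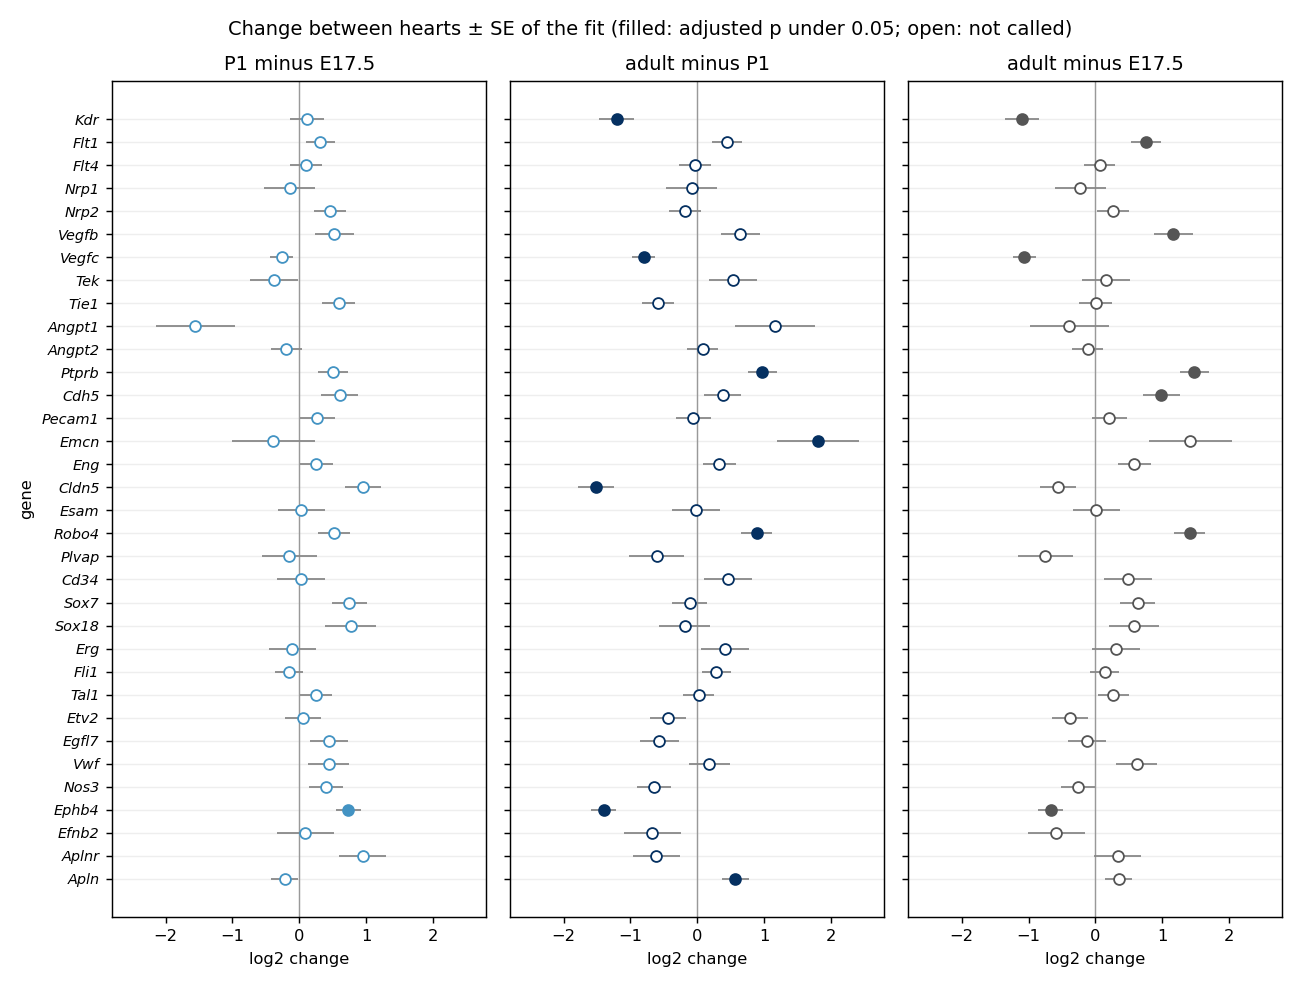
Log2 change of each of the 34 genes (rows) in P1 minus E17.5, adult minus P1 and adult minus E17.5, with bars for the SE of the fit. Filled points passed an adjusted p under 0.05. The first panel has 1 filled point, Ephb4 at 0.73, and the other panels, which share the adult arrays, have 8 each.

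A list of 40 other endothelial genes, none of them among the 34, was counted in the same comparisons. In EB against ES cells 22 rose and 1 fell, where 12% of all genes rose and 8.61% fell. The largest changes were those of Pgf, a ligand of Flt1, at 3.28, Calcrl, the adrenomedullin receptor, at 3.21, and Foxc1, a forkhead factor of vessel development, at 3.04. On EB replicates 1 and 2, Pgf had 7.30 and 8.55, Calcrl 6.17 and 8.09, and Foxc1 5.93 and 8.63, so the EB arrays stood far apart in these genes. The flow-responsive factor Klf2 was the gene that fell, with a change of -2.22. In CB against EB 2 rose and 17 fell, where 5.45% of all genes rose and 6.43% fell. Ramp2, the partner of Calcrl, was at -3.18, with 7.98 and 8.84 in EB, and Calcrl at -2.76. In CB against ES cells 5 rose and 3 fell, where 6.19% of all genes rose and 3.61% fell. Among those that rose were Arhgap31 at 2.68, S1pr1, a sphingosine phosphate receptor, at 2.03 and Mef2c, a factor of both muscle and endothelium, at 1.86. Without either ES array or either CB array, 4 or 5 of the 8 genes called here passed.

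In CB against E17.5 hearts 35 of the 40 fell and 1 rose, where 11.6% of all genes fell and 12.1% rose. The largest changes were those of Cd93, an endothelial surface protein, at -5.11 and Cav1, the coat protein of caveolae, at -4.38. Between the heart ages genes of the list went both ways. In P1 against E17.5, 2 rose and 1 fell, where 2.08% of all genes rose and 3.05% fell. Clec14a was at -1.03 and Gpihbp1, the capillary anchor of lipoprotein lipase, at 0.92. These calls were lost without either E17.5 array or P1 replicate 2, and the calls in the list also moved without either CB array or P1 replicate 1. In adults against P1 6 rose and 10 fell, or 15% and 25%, where 15.6% and 14.7% of all genes did. Against E17.5 9 rose and 8 fell, or 22.5% and 20%, where 18.1% and 18% of all genes did. Gja5, connexin 40 of arterial endothelium and conducting myocytes, averaged 9.53 in E17.5 hearts, 9.90 in P1 hearts and 6.39 in adult hearts (2 arrays each), with changes in adults of -3.51 against P1 and -3.14 against E17.5. Adgrl4, an adhesion receptor of vessels, had 7.65 and 7.52 at E17.5, 8.11 and 7.05 at P1 and 10.02 and 9.80 in adults, with changes in adults of 2.33 against P1 and 2.32 against E17.5. Both adult arrays lay outside the range of the younger hearts in these genes. Without adult replicate 1, 10 of the 40 passed against P1 and 10 against E17.5, and without E17.5 replicate 1, 11 passed against E17.5.

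The exon-level values carry the same samples on single probe sets, small groups of probes that mostly lie in 1 exon. The splicing index is the probe set's log2 value minus its gene's. A change in it means an unequal change of signal within the gene, and the part of splicing in it was not tested. In the limma fit no probe set of the 34 genes passed in EB against ES cells (0 of 94) or in CB against EB (0 of 125). Over all probe sets 0.0294% and 0.00316% passed. An unadjusted p under 0.05 was found in 13 of the 94 and 18 of the 125. Over all probe sets it was found in 3980 of 91776 and 3496 of 94828. These counts rest on the filter on level. Without it 17 of 517 probe sets of these genes passed in EB against ES cells and 2 of 517 in CB against EB, where 0.357% and 0.0673% of all probe sets did. In adult against E17.5 hearts 50 of 444 probe sets passed, or 11.3%, where 16.5% of all did. They lay in 20 of the 34 genes, 26 higher and 24 lower in adults. The adult arrays stand apart at exon level as a whole. The SD of the index change over probe sets was 0.937 to 1.105 in the 5 pairs of groups that hold the adults and 0.552 to 0.796 in the 10 pairs that do not. Without E17.5 replicate 1 or 2, 30 and 17 probe sets of these genes passed, and without either adult array 23 passed.

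The largest index change was in probe set 10530703 of Kdr, which had 9.14 and 8.58 in adults and 7.74 and 4.13 at E17.5. It was higher in adults although the gene as a whole was lower, an index change of 4.02 ± 1.12 (adjusted p = 0.038), and its E17.5 arrays stood far apart. Another Kdr probe set, 10530700, had 7.58 and 7.42 in adults and 6.49 and 5.02 at E17.5 (index change 2.84 ± 0.71, adjusted p = 0.0258). Ptprb probe set 10366511 had 9.68 and 9.64 in adults and 5.38 and 4.20 at E17.5, an index change of 3.39 ± 0.67 (adjusted p = 0.0105), the same direction as the gene. In Vwf, probe set 10541966 had 9.11 and 10.13 in adults and 6.09 and 5.68 at E17.5 (index change 3.12 ± 0.72). Lower ones included Egfl7 probe set 10470295, with 6.32 and 5.04 in adults and 8.88 and 8.22 at E17.5 (index change -2.75 ± 0.67). Flt4 probe set 10375584 had 6.25 and 4.13 in adults and 7.55 and 8.11 at E17.5 (index change -2.70 ± 0.58). In all 6 probe sets the adult and E17.5 values did not overlap. They were chosen as the largest called changes between these same arrays, so this adds no separate support.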

How the data were processed

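RNA was extracted with TRIzol, depleted of ribosomal RNA and amplified before labelling, per the labels' protocols. The deposited values are log2 signals that the authors made with RMA in Affymetrix Power Tools, per the submitters' processing notes, with versions not given in the sources used here. Each of 12 samples has gene-level values (35556 transcript clusters) and exon-level values (241576 probe sets). Array medians ran from 5.615 to 5.7608 at gene level, and with 2 arrays per group the number of arrays limits the precision.

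Values were used as deposited. Features with 1 platform symbol were kept (21789 transcript clusters), and the cluster with the highest mean stood for each of 1015 genes with several, Nrp2 among them (its other cluster was below 4.20). limma 3.58.1 in R 4.3.3 (lmFit, eBayes) was fitted over all arrays with 6 group means, 6 residual and 6.18 prior degrees of freedom, and tested on simulated data. There a true change of 1 was called in 42% of genes for EB against ES, 34% for CB against EB and 60% for adult against E17.5. Only 50 genes were altered per size of change, and 123, 120 and 131 genes were called in all. Far more genes were called in the data, where the adjustment is then less strict. The simulated shares therefore do not give the sensitivity in the data, and a gene that was not called may still have changed. p-values are from its moderated test, adjusted over 19920 genes in each of 7 comparisons. The exon-level fit used genes with at least 4 probe sets, left out 1847 probe sets identical to their gene, required the gene at or above the median in both groups and the probe set in at least 1, and called probe sets whose index changed by 1 or more with an adjusted p under 0.05. Signals were not tested against background. The other genes named were taken from the called ones with the largest changes, up to 4 per comparison, and not all of these are named. Klf2 in EB against ES was named outside this rule, as the only one that fell. For probe sets the 6 largest were named. The members, roles and lists were chosen with earlier results of these data known. Replicate numbers were not treated as pairs in the main fit. Over 15 pairs of groups the deviations correlated between -0.1762 and 0.2898, the highest for E17.5 with P1. The labels do not say whether replicate numbers pair samples, and these values cannot decide it. Ccl21a, Hbb-b1, Hba-a1, T and Ccnb1 were among the marker genes that had no value under these symbols. Figures used Python 3.11.15 and matplotlib 3.10.9.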

Additional observations from a re-analysis of the deposited data

How the results depend on the processing

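The counts of called genes among the 34 kept within 1.5 times under an intensity trend, quantile normalization, a filter on low values and the mean of all clusters. With the replicate number as a block 0 were called in P1 against E17.5, as with the median of exon-level values (0) and with a change of at least 1 required (0). That last rule left 4 in adult against P1 and 5 in adult against E17.5. The replicate block gave 19, 18, 3, 1, 8, 8 and 29 without it and 19, 19, 3, 0, 7, 8 and 28 with it, in the order EB against ES, CB against EB, CB against ES, P1 against E17.5, adult against P1, adult against E17.5 and CB against E17.5. With each array left out the counts ran from 14 to 20, 13 to 21, 1 to 4, 0 to 4, 6 to 10, 5 to 9 and 24 to 29 in that order. For the 40 other endothelial genes they ran from 16 to 25, 11 to 22, 4 to 10, 0 to 7, 10 to 20, 10 to 19 and 32 to 38. Of those 40, 5 were called in CB against ES with exon-level medians and 4 with a change of at least 1, 5 in P1 against E17.5 with quantile normalization and 1 with a change of at least 1, and 10 in adult against P1 with a change of at least 1. For member probe sets, no filter on level gave 17 calls in EB against ES and 2 in CB against EB. In adult against E17.5, 31 were left among genes that changed by at most 1 and 41 with the replicate block, and 17 to 48 with an array left out. The count of 10 genes that differed between EB arrays became 9 after quantile normalization and 8 with exon-level medians. Over single genes, 99 of 2856 results with an array left out and 15 of 1421 under other settings lost their call, 37 and 7 gained one, and 0 changed direction. These totals count each of the 34 genes in each comparison and hold no probe sets. Most of these results were not called with all arrays and had no call to lose. The cause of these shifts was not tested beyond fewer arrays, a stricter rule or fewer genes in the settings that say so. No array was measured against background here, so low signals such as Emcn in ES cells and CB have no floor.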
